A study of Mus musculus with 4 samples.

Results

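Long non-coding RNAs and the host genes of small RNAs were represented by 10 genes: the nuclear RNAs *Malat1* and *Neat1*, the snoRNA host genes *Gas5*, *Snhg1*, *Snhg3*, *Snhg5*, *Snhg8* and *Snhg12*, and the microRNA host genes *Dleu2* and *Mir17hg*. They were taken by symbol for the kind of RNA they make, and all 10 were found among the 24421 genes listed, so no gene of the set was absent. All 10 also passed the filter for testing, which asked for at least 1 FPKM in 2 or more samples and kept 10776 genes. FPKM counts fragments per kilobase of gene relative to sequencing depth, and it allows levels to be compared between genes of different length.

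RNA was sequenced from CD69+DP thymocytes (CD4+CD8+ cells that carry CD69 after a TCR signal), FACS sorted from the thymus of C57BL/6 mice aged 6 weeks. The 2 control samples came from mice with floxed *Foxa1* and *Foxa2* alleles and no CD4Cre (Foxa1fl/flFoxa2fl/fl CD4Cre-). The 2 Foxa1/2cKO samples came from mice with the same floxed alleles and the CD4Cre transgene, whose Cre is driven from *Cd4* sequences and so is active from the DP stage of T cells onwards. The sorts were independent and used different mice, and the study's methods give 2 mice of each genotype for a sort, so that how many mice one library holds is not certain. Both genotypes carry the floxed alleles, and the controls lack the transgene itself, so an effect of Cre and one of the deletion cannot be told apart.

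*Malat1* is one of the most abundant nuclear RNAs of mammalian cells and gathers in nuclear speckles, bodies rich in splicing factors, whereas *Neat1* is the scaffold around which paraspeckles form. The snoRNA host genes carry small nucleolar RNAs, mostly in their introns, and these guide the chemical modification of ribosomal RNA. The spliced host RNA that remains usually encodes no stable protein and is often degraded by nonsense-mediated decay when it is translated. *Dleu2* and *Mir17hg* play the same part for microRNAs, since their primary transcripts are cut to release miR-15a and miR-16 or the miR-17-92 cluster.

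The recovered depth was 10396878 to 14482757 reads per sample, and each of the 10 genes had 103 to 85047 reads in a sample. *Foxa1* and *Foxa2* had 0 reads in every sample of either genotype, where a count of 0 allows up to 3 reads, so the deletion could not be checked from their levels. The Foxa1/2cKO samples lay further from each other than the controls did. The SD of the log2 difference over all genes tested was 0.405 between the Foxa1/2cKO samples and 0.198 between the controls, and Foxa1/2cKO 2 stood further from the control mean than Foxa1/2cKO 1 (12.0% and 3.24% of genes over 0.5 on the log2 scale away). The defining DP genes were present, with *Cd4* at 342 to 446 FPKM and *Cd8b1* at 592 to 974 FPKM. *Il7r*, a gene of more mature thymocytes, was 33.7 and 44.1 FPKM in the controls, whereas Foxa1/2cKO 1 had 41.5 and Foxa1/2cKO 2 had 13.4. In a sorted bulk sample, fewer cells of a type and less RNA per cell cannot be told apart.

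Across the 10 genes the differences between genotypes were small: 8 genes had a lower and 2 a higher fitted level in Foxa1/2cKO, and the median log2 fold change was -0.05 against 0.01 over all genes tested. Fold changes are those of limma on log2(FPKM + 1), a scale that understates the change of low genes. None of the 10 (0 genes) passed an adjusted p of 0.05 (limma, Benjamini-Hochberg adjustment), where 0.00928% of all genes tested did, which is 1 gene. That gene, *2610035D17Rik*, is a long non-coding RNA outside the set, with 286 and 264 reads in control but only 1 in either Foxa1/2cKO sample (adjusted p = 0.0378 from limma). The call was lost (0 genes) with a pseudocount of 0.1, without a filter on low values, with 1 FPKM required in every sample, with scaling to all recovered reads, with limma-voom and with either control left out. At an unadjusted p under 0.05 there was 1 of the 10, *Neat1*, which was lower, where 4.55% of all genes passed and 2.15% passed in the lower direction. With limma-voom on the recovered reads the counts for the 10 genes were also 0 and 1. With 2 samples against 2, the smallest two-sided p of an exact permutation test is 0.333, and the limma p-values measure the spread between these samples alone.

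Counting only the order of the samples, both Foxa1/2cKO values lay below both controls for 4 of the 10 genes (*Malat1*, *Neat1*, *Snhg5* and *Snhg12*), where this held for 17.8% of all genes tested. Both lay above both controls for 1 gene, *Mir17hg*, where this held for 18.9% of all genes. The other 5 genes overlapped between genotypes.

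**Figure D1:**
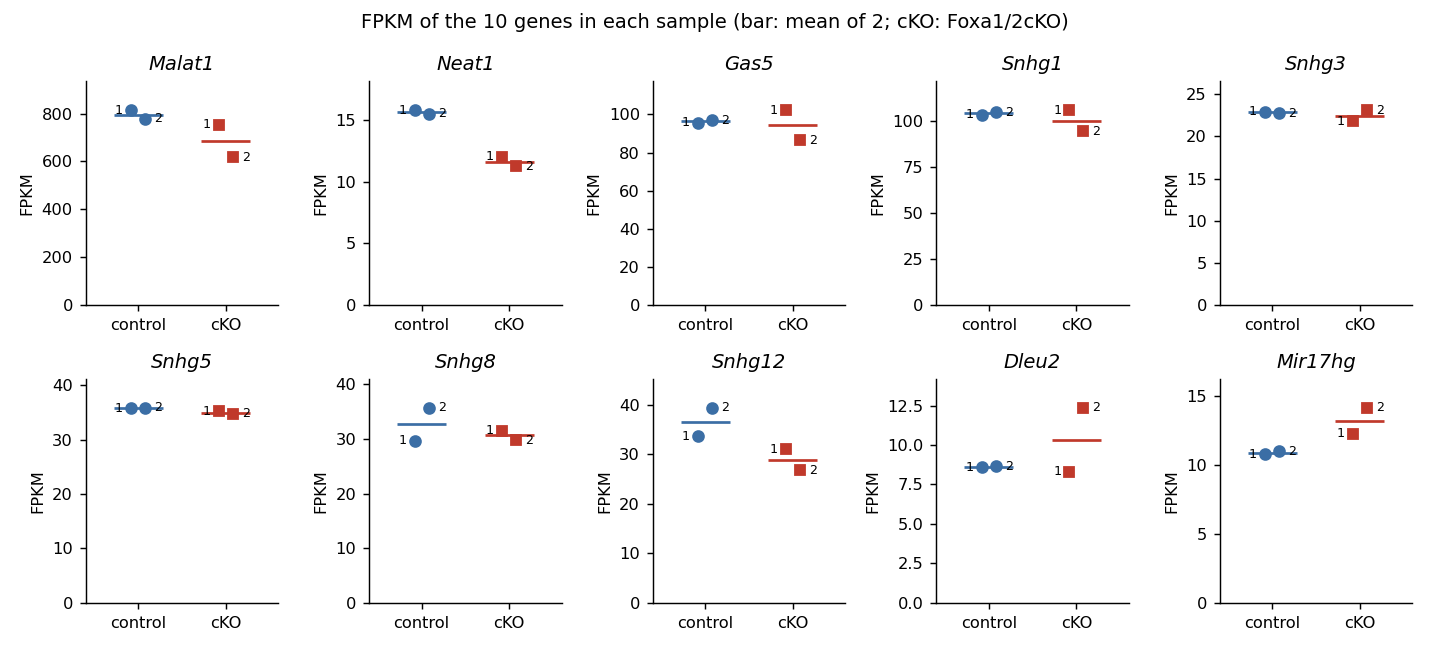
FPKM of each of the 10 genes (vertical axes from 0, one scale per gene) in the 2 control samples (blue circles) and the 2 Foxa1/2cKO samples (red squares), numbered by replicate, with the mean as a bar. Only Neat1, Malat1, Snhg12, Snhg5 and Mir17hg keep the genotypes apart, and the Snhg5 values all lie between 34.7 and 35.8 FPKM.

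*Malat1* (chromosome 19 of mm10, 5795690 to 5802672, minus strand) was the most abundant of the 10. Its FPKM was 814 and 778 in the controls against 753 and 618 in Foxa1/2cKO, from 85047, 73726, 56729 and 47907 reads. Both Foxa1/2cKO values were below both controls, but Foxa1/2cKO 1 was only slightly so and Foxa1/2cKO 2 accounted for most of the gap. The means were 796 ± 25.5 and 686 ± 94.8 FPKM (SD, n = 2 each), 13.9% lower in Foxa1/2cKO, with a log2 fold change of -0.22 (standard error [SE] 0.13, 95% interval -0.56 to 0.12, adjusted p = 0.863 from limma). Without Foxa1/2cKO 2 the log2 fold change was -0.08, and without Foxa1/2cKO 1 it was -0.36. As a share of all recovered reads, *Malat1* took 0.587% and 0.564% in the controls against 0.546% and 0.425% in Foxa1/2cKO, and it ranked 33, 35, 34 and 50 among genes by FPKM. The rank needs no scaling between samples, whereas the share scales each sample to its own recovered reads. Both place Foxa1/2cKO 1 near the controls and Foxa1/2cKO 2 apart. The row was 6982 bases long as read from the values, which covers the whole locus. The mascRNA that is cut from the 3′ end of *Malat1* had no row of its own in the file.

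*Neat1* (chromosome 19, 5824708 to 5845478, minus strand) lies 22036 bases from *Malat1* on the same strand. Its FPKM was 15.8 and 15.5 in the control samples and 12.0 and 11.2 in Foxa1/2cKO, from 4902, 4372, 2690 and 2587 reads. The groups were well separated: the samples within each genotype were close to each other, and Foxa1/2cKO 1 was nearly as low as Foxa1/2cKO 2. The means were 15.6 ± 0.186 and 11.6 ± 0.543 FPKM (SD, n = 2 each), 25.7% lower in Foxa1/2cKO. The log2 fold change was -0.40 (SE 0.09, 95% interval -0.64 to -0.16), with an unadjusted p of 0.0086 and an adjusted p of 0.863 from limma. *Neat1* ranked 69 of the 10776 genes by p. Over 13 alternatives its log2 fold change stayed between -0.51 and -0.36, with an unadjusted p of 0.00127 to 0.108 from limma. With either control left out, the unadjusted p of *Neat1* no longer passed 0.05 (0 of the 10 genes passed then), and without Foxa1/2cKO 1 its adjusted p was 0.0131 in a fit whose spread came from the controls alone. The row of 20771 bases spans the long form, which builds the paraspeckle, and also holds the short form, so the reads do not tell the isoforms apart.

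*Malat1* and *Neat1* did not keep a fixed ratio. The FPKM of *Malat1* was 51.6 and 50.2 times that of *Neat1* in the controls, and 62.7 and 55.1 times in Foxa1/2cKO, so the ratio was above both controls in both Foxa1/2cKO samples. *Frmd8*, the neighbour of *Neat1* on the other side, had a log2 fold change of 0.11 (SE 0.12, adjusted p = 0.872 from limma) and overlapped between genotypes.

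**Figure D2:**
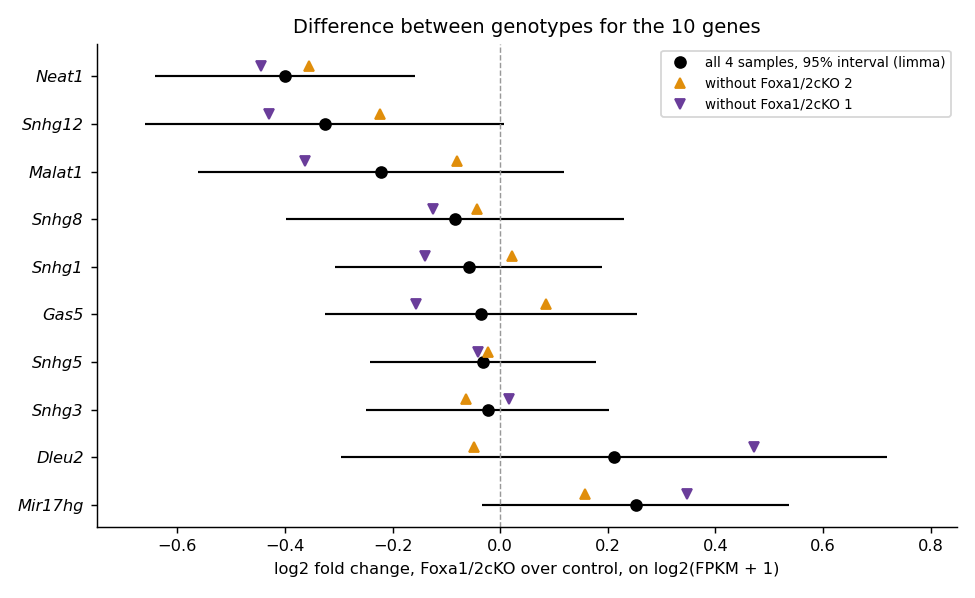
Log2 fold change of Foxa1/2cKO over control on log2(FPKM + 1) (horizontal axis) for the 10 genes, with the 95% interval of the limma fit on 4 samples (black) and the value without Foxa1/2cKO 2 (orange) or without Foxa1/2cKO 1 (purple). The interval excludes 0 only for Neat1 (-0.64 to -0.16), and Dleu2, Gas5, Snhg1 and Snhg3 lie on opposite sides of 0 depending on which Foxa1/2cKO sample is left out.

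The mRNAs of Neat1 protein partners and of speckle proteins were read in the same samples, while the proteins themselves were not measured. Of 12 genes for paraspeckle proteins, 11 had a lower and 1 a higher fitted level in Foxa1/2cKO, with a median log2 fold change of -0.06. For 5 of them both Foxa1/2cKO values lay below both controls, where 17.8% of all genes did so. The smallest p among them was that of *Hnrnph3*, an RNA-binding protein of the paraspeckle, at 24.1 and 26.4 FPKM in the control samples and 18.8 and 22.8 in those of Foxa1/2cKO (log2 fold change -0.27, adjusted p = 0.863 from limma). *Sfpq*, which binds *Neat1* and is needed for paraspeckles, was 205 and 207 FPKM in the controls, compared with 200.3 and 232 in Foxa1/2cKO, and overlapped. Of 9 genes for speckle proteins, 5 were higher and 4 lower, with a median of 0.01. The speckle core protein gene *Son* was 138 and 131 FPKM in the controls against 152 and 164 in Foxa1/2cKO (log2 fold change 0.23, adjusted p = 0.863 from limma). No gene of either list had an unadjusted p under 0.05.

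The 6 snoRNA host genes are shown first by their start sites, because many snoRNA hosts are known as genes whose RNA starts with a run of pyrimidines (a terminal oligopyrimidine tract), the feature that ties translation to growth signals. Each line gives 20 bases before and 30 bases from the RefSeq start on GRCm38.p6 (the assembly of mm10), 5′ to 3′ on the strand of the gene. Capitals mark a run of C followed by C or T, at least 5 bases long, that begins within 10 bases of the start; *Snhg1* has no such run, its longest being 4.
Gas5, later of its starts: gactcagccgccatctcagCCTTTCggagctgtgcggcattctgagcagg
Snhg12: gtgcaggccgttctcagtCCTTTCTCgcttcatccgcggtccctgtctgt
Snhg8: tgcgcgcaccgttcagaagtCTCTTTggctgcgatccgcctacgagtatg
Snhg5: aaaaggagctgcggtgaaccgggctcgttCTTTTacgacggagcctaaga
Snhg3: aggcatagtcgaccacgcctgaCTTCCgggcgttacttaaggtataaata
Snhg1: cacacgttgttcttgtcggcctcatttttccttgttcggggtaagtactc

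These windows lie at chr1:161035146-161035195 (plus strand, *Gas5*), chr4:132308658-132308707 (plus, *Snhg12*), chr3:123508307-123508356 (minus, *Snhg8*), chr9:88522868-88522917 (minus, *Snhg5*), chr4:132353657-132353706 (minus, *Snhg3*) and chr19:8723467-8723516 (plus, *Snhg1*). A run of at least 5 was found in 5 of the 6 snoRNA hosts and in 34.4% of the 27025 genes with a start sequence, so the letters alone are common. The longest run over all listed starts of a gene was used, and the earlier start of *Gas5* had a run of only 3. A run of at least 8 was found in *Snhg12* only among the 10 genes, and in 9.43% of all genes. The RefSeq table held start sequences for 9 of the 10 genes, *Neat1* being the exception. In the 250 bases before and 50 bases after the start, on both strands, the forkhead motifs TGTTTAC and TGTTTGC occurred in 0 of these 9 genes (4.05% and 5.76% of all genes), and the E-box CACGTG in *Dleu2* only (8.09% of all genes). For *Mir17hg* the window lies at the RefSeq start, 1511 bases after the GENCODE start, so the GENCODE start of that gene was not searched. A match or its lack is a description of these letters and says nothing of a factor's binding.

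As a group, the 6 snoRNA hosts all had lower fitted values in Foxa1/2cKO, although a correction for gene length turned *Snhg3* and *Snhg5* to 0.031 and 0.012 on the log2 scale. For 4 of them the fold change was between -0.06 and -0.02 and the genotypes overlapped or nearly touched. The summed FPKM of the 6 hosts was 321 and 335 in the controls against 328 and 295 in Foxa1/2cKO, so that Foxa1/2cKO 1 lay between the controls and Foxa1/2cKO 2 below them. Only *Snhg5* and *Snhg12* kept both Foxa1/2cKO values below both controls.

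*Snhg12* (chromosome 4, 132308623 to 132311024, plus strand) had the lowest fold change of the snoRNA hosts. It had an FPKM of 33.6 and 39.4 in the controls and of 31.0 and 26.8 in Foxa1/2cKO, from 305, 324, 203 and 180 reads. The genotypes did not overlap, although control 1 and Foxa1/2cKO 1 were close. The means were 36.5 ± 4.07 and 28.9 ± 3.01 FPKM (SD, n = 2 each), 20.8% lower. The log2 fold change was -0.33 (SE 0.13, 95% interval -0.66 to 0.01), with an unadjusted p of 0.0534 and an adjusted p of 0.863 from limma. Without Foxa1/2cKO 2 the log2 fold change was -0.22. Its 4 intronic snoRNAs (*Snora16a*, *Snora44* and *Snora61*, which guide pseudouridylation, and *Snord99*, of the methylation-guiding class) all had rows in the file. Their summed reads were 54, 43, 31 and 19, or 3.61, 3.17, 2.87 and 1.71 per 1000000 of the total that scales the FPKM. Taken singly, only *Snora61* kept both Foxa1/2cKO values below both controls. *Snora16a*, *Snora44* and *Snord99* overlapped between genotypes, on 2 to 23 reads in a sample. For *Snora44* and *Snord99* the lowest sample was control 2, at 3.78 and 2.63 FPKM, against 4.62 and 6.44 in Foxa1/2cKO 2. Summed, the snoRNAs had the same order of genotypes as the host, with Foxa1/2cKO 2 lowest in both. All 110 rows of snoRNAs in the file, which are short and poorly kept in such libraries, gave 45.0, 44.1, 40.0 and 36.1 reads per 1000000 in the same order, also lowest in Foxa1/2cKO 2, and the part of this in the values of *Snhg12* was not tested. The neighbouring *Trnau1ap*, which ends 739 bases away on the other strand, had a log2 fold change of -0.03 (SE 0.09).

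*Gas5* and *Snhg1* were the most abundant snoRNA hosts. *Gas5* (chromosome 1, 161034422 to 161038539, plus strand), which holds 8 annotated snoRNAs and whose RNA accumulates when cells stop growing, was 95.7 and 97.0 FPKM in the control samples and 102 and 86.4 in those of Foxa1/2cKO. The controls lay between the Foxa1/2cKO samples, and the means were 96.3 ± 0.937 and 94.3 ± 11.2 FPKM (SD, n = 2 each). Its log2 fold change was -0.04 (SE 0.11, 95% interval -0.33 to 0.26, adjusted p = 0.959 from limma), and it was 0.08 without Foxa1/2cKO 2 and -0.16 without Foxa1/2cKO 1. *Gas5* overlaps the start of *Zbtb37* on the other strand, and whether the gene counts used strand is not given in the sources used here. *Zbtb37* was far lower, at 2.96 and 2.58 FPKM in the controls, compared with 3.20 and 5.41 in Foxa1/2cKO.

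*Snhg1* (chromosome 19, 8723475 to 8726443, plus strand) was 103 and 105 FPKM in the controls against 106 and 94.5 in Foxa1/2cKO. As with *Gas5*, Foxa1/2cKO 1 was the highest and Foxa1/2cKO 2 the lowest of the 4 samples. The log2 fold change was -0.06 (SE 0.09, 95% interval -0.31 to 0.19, adjusted p = 0.913 from limma), and it was 0.02 without Foxa1/2cKO 2. Of its 8 annotated snoRNAs only *Snord22* had a row, with 77, 50, 52 and 30 reads, or 5.14, 3.68, 4.82 and 2.70 per 1000000, and the genotypes overlapped. Its divergent neighbour *Slc3a2*, the heavy chain of amino acid transporters, starts 106 bases away and had a log2 fold change of 0.09 (SE 0.18, adjusted p = 0.926 from limma).

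*Snhg3*, *Snhg5* and *Snhg8* had mean levels between those of *Neat1* and *Gas5* and small fold changes. *Snhg3* (chromosome 4, 132348014 to 132353686, minus strand), host of *Snora73a* and *Snora73b*, was 22.9 and 22.8 FPKM in the control samples and 21.8 and 23.1 in those of Foxa1/2cKO (log2 fold change -0.02, SE 0.09, 95% interval -0.25 to 0.20). *Snhg5* (chromosome 9, 88521050 to 88522929, minus strand) was 35.7 and 35.8 FPKM in the controls, compared with 35.2 and 34.7 in Foxa1/2cKO (log2 fold change -0.03, SE 0.08, 95% interval -0.24 to 0.18). Its genotypes did not overlap, yet the gap between them was only about as wide as that between the Foxa1/2cKO samples. *Snhg8* (chromosome 3, 123507552 to 123508404, minus strand) was 29.6 and 35.7 FPKM in the controls against 31.5 and 29.7 in Foxa1/2cKO (log2 fold change -0.08, SE 0.12, 95% interval -0.40 to 0.23), with the 2 controls as the outermost samples. A difference within these intervals was not detectable here. The snoRNA *Snora24*, which lies within *Snhg8*, was listed at 0 in all 4 samples.

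*Rcc1*, the exchange factor for the nuclear transport GTPase Ran, overlaps *Snhg3* on the same strand and starts 81 bases away. It was 29.8 and 31.1 FPKM in the control samples and 26.0 and 15.1 in those of Foxa1/2cKO (log2 fold change -0.59, SE 0.26, adjusted p = 0.863 from limma), whereas that of *Snhg3* was -0.02. Reads in the shared stretch could be assigned to either gene or to neither, so both values are uncertain to that extent. *Snora73a*, *Snora73b* and the snoRNAs of *Snhg5* had no row in the file. Of 34 small RNAs annotated within the 10 genes, 15 had a row and 7 of these were above 0 in at least 1 sample.

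The genes that make snoRNA particles and those that degrade host RNAs were read from lists. Of 17 tested genes for core and assembly proteins of snoRNA particles, 15 had a lower and 2 a higher fitted level in Foxa1/2cKO. Their median log2 fold change was -0.21 against 0.01 for all genes. Both Foxa1/2cKO values lay below both controls for 11 of the 17, where 17.8% of all genes did so. *Fbl* (fibrillarin, the methyltransferase of box C/D particles) was 40.5 and 48.6 FPKM in the controls, compared with 34.8 and 29.1 in Foxa1/2cKO (log2 fold change -0.47, unadjusted p = 0.0238 and adjusted p = 0.863 from limma). *Znhit3*, an assembly factor of the same particles, was 11.6 and 12.2 FPKM in the controls against 9.05 and 8.16 in Foxa1/2cKO (log2 fold change -0.43, unadjusted p = 0.011 and adjusted p = 0.863 from limma). None of the 17 passed the adjusted threshold (0 genes), 2 passed the unadjusted one in the lower direction, where 2.15% of all genes did, and Foxa1/2cKO 2 was the lowest sample for both. Of 10 nonsense-mediated decay factors, 5 were higher and 5 lower, with a median of -0.01. The kinase *Smg1*, which starts this decay, was 43.9 and 39.5 FPKM in the control samples and 51.3 and 61.5 in those of Foxa1/2cKO (log2 fold change 0.43, unadjusted p = 0.0209 and adjusted p = 0.863 from limma).

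A further 7 *Snhg* genes were high enough to test. Of these, 5 had a lower and 2 a higher fitted level in Foxa1/2cKO, with a median log2 fold change of -0.07, and none (0 genes) had an unadjusted p under 0.05 from limma. The smallest p was that of *Snhg4*, at 4.59 and 3.97 FPKM in the controls, compared with 3.86 and 3.05 in Foxa1/2cKO. *Snhg6*, the most abundant of them, was 47.1 and 53.6 FPKM in the controls against 52.1 and 39.2 in Foxa1/2cKO, so that Foxa1/2cKO 2 alone lay below the controls.

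**Figure D3:**
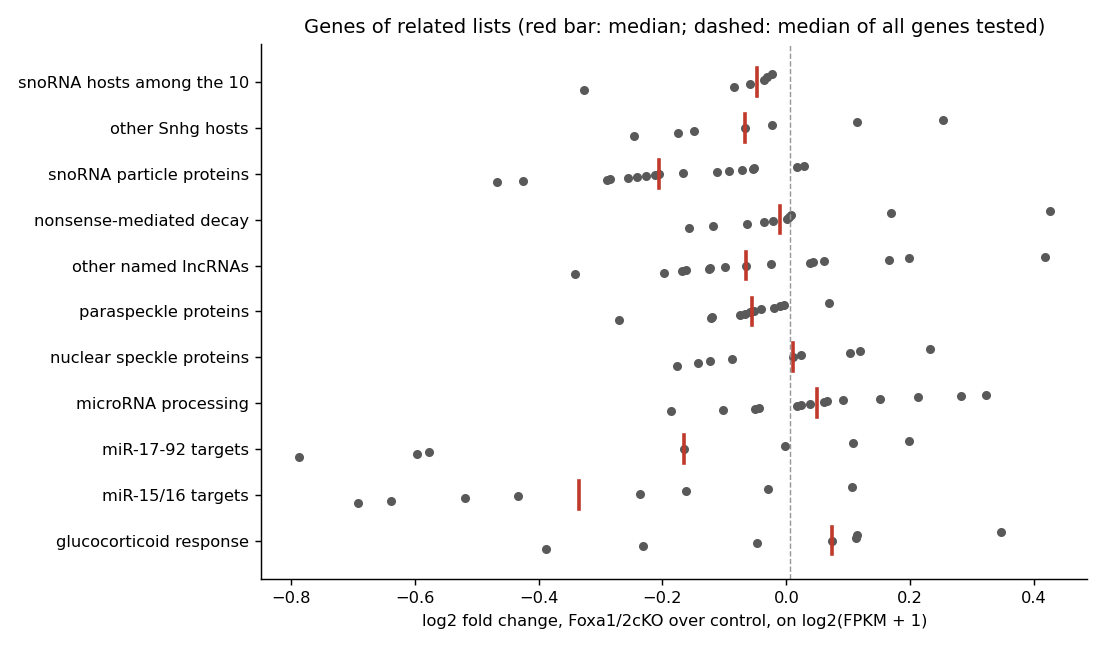
Log2 fold change of Foxa1/2cKO over control on log2(FPKM + 1) (horizontal axis) for the tested genes of each list (dots, one per gene), with the list's median in red and the median of all genes tested (0.01) dashed. Genes for snoRNA particle proteins have a median of -0.21, the miR-17-92 targets one of -0.17 and the miR-15/16 targets one of -0.33. Of the 8 miR-15/16 targets, 6 overlap between genotypes. Genes for nonsense-mediated decay factors (-0.01) and speckle proteins (0.01) are centred near 0.

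The microRNA hosts are best read beside the microRNAs they carry, shown here as mature sequences from RefSeq on GRCm38.p6, 5′ to 3′, with the seed (bases 2 to 8), which pairs with target mRNAs, in capitals. The first 6 lines belong to *Mir17hg* and are grouped by seed, and the last 2 belong to *Dleu2*.
mmu-miR-17-5p: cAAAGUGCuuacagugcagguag
mmu-miR-20a-5p: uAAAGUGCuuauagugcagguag
mmu-miR-18a-5p: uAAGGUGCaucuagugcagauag
mmu-miR-19a-3p: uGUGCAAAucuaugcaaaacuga
mmu-miR-19b-3p: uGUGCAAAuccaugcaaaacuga
mmu-miR-92a-3p: uAUUGCACuugucccggccug
mmu-miR-15a-5p: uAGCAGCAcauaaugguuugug
mmu-miR-16-5p: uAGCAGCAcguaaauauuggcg

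The *Mir17hg* sequences lie between chr14:115043684-115043706 (miR-17-5p) and chr14:115044476-115044496 (miR-92a-3p) on the plus strand, and those of *Dleu2* at chr14:61632075-61632096 (miR-15a-5p) and chr14:61631936-61631957 (miR-16-5p) on the minus strand. The seed of miR-17-5p and miR-20a-5p occurs in 7 of 1679 mature mouse microRNAs in the table, that of miR-19a-3p and miR-19b-3p in 2, and that of miR-15a-5p and miR-16-5p in 10. Mature microRNAs were not measured in these libraries. Of the 8 hairpins in both hosts, 7 were at 0 in every sample and *Mir18* had 1 read in control 1, where the limit of 3 reads stands for an FPKM of 1.87 to 3.47 for hairpins this short. The readout for both hosts is therefore the spliced or unprocessed host RNA.

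*Mir17hg* (chromosome 14, 115042879 to 115046727 in GENCODE, plus strand) had the highest fitted fold change of the 10. Its FPKM was 10.8 and 11.02 in the control samples and 12.3 and 14.1 in Foxa1/2cKO, from 378, 350, 310 and 367 reads. Both Foxa1/2cKO values were above both controls, the controls were close together, and Foxa1/2cKO 2 was the highest sample. The means were 10.9 ± 0.159 and 13.2 ± 1.32 FPKM (SD, n = 2 each), 21.1% higher. The log2 fold change was 0.25 (SE 0.11, 95% interval -0.03 to 0.54), with an unadjusted p of 0.072 and an adjusted p of 0.863 from limma. Without Foxa1/2cKO 2 it was 0.16, and without Foxa1/2cKO 1 it was 0.35. The length read from the values, 2339 bases, is that of the RefSeq gene, which starts 1511 bases after the GENCODE gene. Of its 6 hairpins, 4 lie wholly before the RefSeq start, *Mir19b-1* straddles it and only *Mir92-1* is inside, so the row measures the 3′ part of the primary transcript. The nearest genes on either side, *1700100I10Rik* and *Gpc5*, were listed at 0 in all 4 samples.

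**Figure D4:**
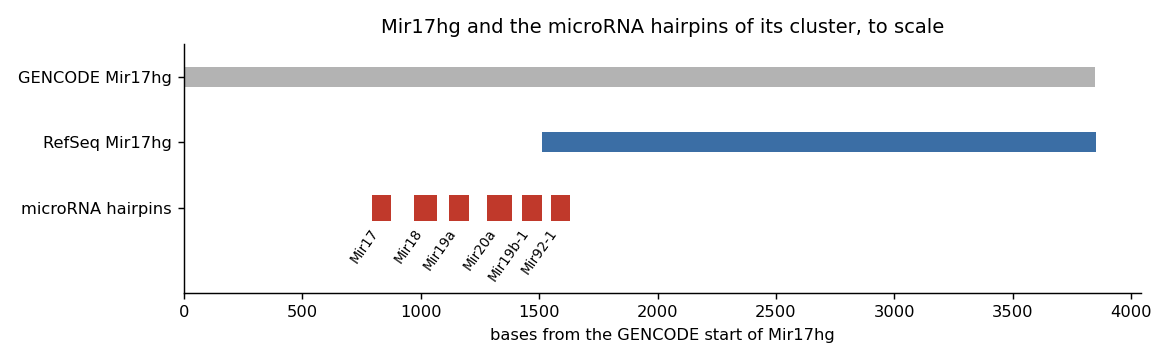
Map of Mir17hg to scale (horizontal axis: bases from the GENCODE start), with the GENCODE gene (grey), the RefSeq gene whose length the values carry (blue) and the 6 microRNA hairpins (red). The RefSeq gene starts 1511 bases in, after 4 of the 6 hairpins, so the counted stretch holds Mir92-1 and little else of the cluster.

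*Dleu2* (chromosome 14, 61602839 to 61682373, minus strand), named for its deletion in leukaemia, had the widest log2 spread between Foxa1/2cKO samples among the 10 genes. It had an FPKM of 8.60 and 8.65 in the controls and of 8.31 and 12.3 in Foxa1/2cKO, from 218, 199, 152 and 232 reads. Foxa1/2cKO 1 was the lowest and Foxa1/2cKO 2 by far the highest of the 4 samples, so the genotypes overlapped. The means were 8.62 ± 0.0389 and 10.3 ± 2.85 FPKM (SD, n = 2 each), with a log2 fold change of 0.21 (SE 0.19, 95% interval -0.30 to 0.72, adjusted p = 0.868 from limma). Without Foxa1/2cKO 2 the sign turned, to -0.05, and without Foxa1/2cKO 1 the log2 fold change was 0.47. *Trim13*, a ubiquitin ligase gene that overlaps *Dleu2* on the other strand, was 4.603 and 5.47 FPKM in the control samples and 5.95 and 5.52 in those of Foxa1/2cKO (log2 fold change 0.16, SE 0.13, adjusted p = 0.863 from limma). Without a stated strand, reads of the shared stretch cannot be told apart.

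Target mRNAs of both clusters were read from textbook lists. Of 7 tested targets of miR-17-92, 5 had a lower and 2 a higher fitted level, and 4 had both Foxa1/2cKO values below both controls and 2 above, where 17.8% and 18.9% of all genes did. *Bcl2l11*, which encodes the death protein Bim, was 40.8 and 39.4 FPKM in the controls, compared with 36.6 and 34.7 in Foxa1/2cKO (log2 fold change -0.17, adjusted p = 0.863 from limma). The cell cycle factor *E2f1* was 8.47 and 9.08 FPKM in the controls, while Foxa1/2cKO 1 had 8.16 and Foxa1/2cKO 2 had 2.501, so that 1 sample set its fold change. Of 8 targets of miR-15a and miR-16, 7 were lower and 1 higher, with a median of -0.33. However, 6 of the 8 overlapped between genotypes, with 1 below both controls and 1 above (17.8% and 18.9% of all genes). Foxa1/2cKO 2 also stood out in *Ccne1* (cyclin E1), at 13.6 and 14.4 FPKM in the controls, with 14.2 for Foxa1/2cKO 1 against 5.12 for Foxa1/2cKO 2. The survival gene *Bcl2* was 26.8 and 30.4 FPKM in the control samples and 27.2 and 21.3 in those of Foxa1/2cKO, and overlapped. None of the 15 target genes (0 genes) had an unadjusted p under 0.05 from limma.

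Of 14 microRNA processing and effector genes tested, 10 were higher and 4 lower, with a median log2 fold change of 0.05. Both Foxa1/2cKO values lay above both controls for 7 of the 14 and below for 3, where 18.9% and 17.8% of all genes did so. *Ago2*, the Argonaute that cuts targets, was 27.4 and 22.002 FPKM in the controls, compared with 29.4 and 30.7 in Foxa1/2cKO, above both controls. *Drosha*, the nuclease that frees hairpins from host transcripts, was 24.0 and 26.6 FPKM in the controls against 23.3 and 21.0 in Foxa1/2cKO, below both controls. None of the 14 passed the adjusted threshold (adjusted p = 0.863 from limma for both *Ago2* and *Drosha*).

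In both genotypes *Malat1*, *Snhg1* and *Gas5* had the highest mean levels, in that order, and *Dleu2* the lowest. By mean FPKM over the 4 samples *Malat1* came first at 741, above 99.7% of the genes tested, and was followed by *Snhg1* at 102 and *Gas5* at 95.3. *Snhg5* (35.4), *Snhg12* (32.7), *Snhg8* (31.6) and *Snhg3* (22.7) formed the middle. *Neat1* (13.6), *Mir17hg* (12.1) and *Dleu2* (9.48) were lowest, at the 47.4, 43.8 and 37.1 percentile of the genes tested. Ranges over samples overlapped between the neighbours *Snhg1* and *Gas5*, *Snhg5* and *Snhg12*, *Snhg12* and *Snhg8*, *Neat1* and *Mir17hg*, and *Mir17hg* and *Dleu2*. Within each of the 4 samples, however, *Snhg1* was above *Gas5* and *Mir17hg* above *Dleu2*, while the order of the other pairs varied between samples. The other steps, from *Malat1* to *Snhg1*, from *Gas5* to *Snhg5*, from *Snhg8* to *Snhg3* and from *Snhg3* to *Neat1*, were free of overlap. *Neat1* and *Mir17hg* stood in opposite order in the genotypes, with *Neat1* above *Mir17hg* in both controls and below it in both Foxa1/2cKO samples.

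The spread between samples of 1 genotype was then set against counting error, which the recovered reads give. The median absolute log2 difference between replicates over the 10 genes was 0.0223 for the controls and 0.184 for Foxa1/2cKO. In the controls 2 of the 10 genes differed by more than 2 counting standard errors (*Malat1* and *Snhg8*), and in Foxa1/2cKO 4 did (*Malat1*, *Neat1*, *Gas5* and *Dleu2*). For *Malat1*, whose many reads make counting error small, the log2 difference was -0.28 between the Foxa1/2cKO samples, or 31.6 counting standard errors, and -0.07 between the controls, or 8.998. For *Dleu2* the difference of 0.57 between the Foxa1/2cKO samples was 3.79 counting standard errors, so its 152 and 232 reads differ by more than counting error. *Neat1* was the least affected of these, with -0.10 between the Foxa1/2cKO samples, or 2.40 counting standard errors, a gap far smaller than that between genotypes.

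**Figure D5:**
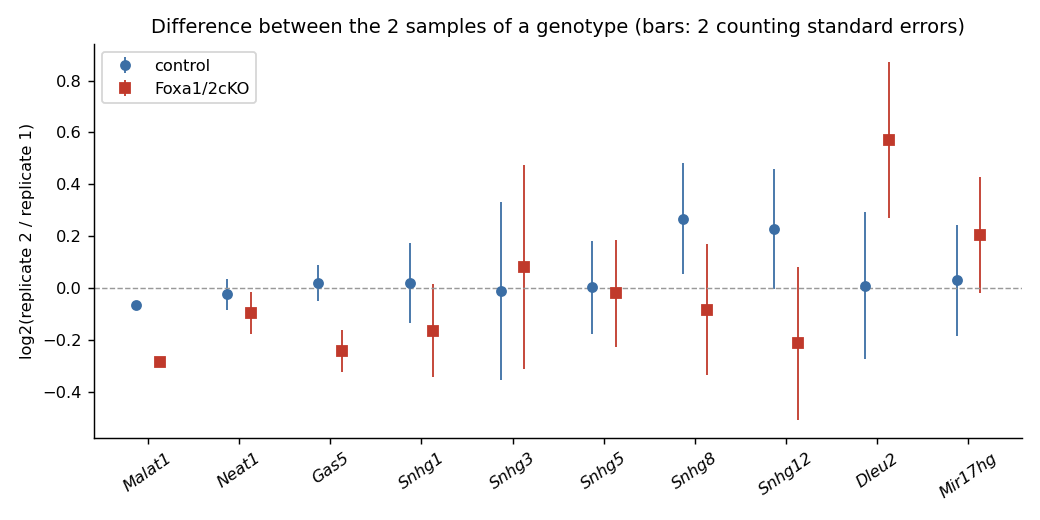
Log2 ratio of replicate 2 over replicate 1 (vertical axis) for the 10 genes in control (blue circles) and Foxa1/2cKO (red squares), with bars of 2 counting standard errors. The control points lie near 0 except for Snhg8 and Snhg12, while Malat1 (-0.28), Gas5 (-0.24) and Dleu2 (0.57) lie far from 0 in Foxa1/2cKO.

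Glucocorticoid response genes were read because *Gas5* RNA can bind the glucocorticoid receptor. The receptor gene *Nr3c1* was 29.2 and 29.1 FPKM in the control samples and 32.1 and 31.1 in those of Foxa1/2cKO (log2 fold change 0.11, adjusted p = 0.863 from limma). Of 7 genes tested, 4 were higher and 3 lower, with a median log2 fold change of 0.07. *Tsc22d3*, which encodes the glucocorticoid-induced leucine zipper, was 19.3 and 18.4 FPKM in the controls, compared with 21.5 and 27.4 in Foxa1/2cKO. *Dusp1*, a phosphatase of MAP kinases, was in the other direction, at 15.6 and 14.98 FPKM in the controls against 12.7 and 10.3 in Foxa1/2cKO (log2 fold change -0.39, unadjusted p = 0.0325 and adjusted p = 0.863 from limma).

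Of 10 markers of DP thymocytes, 8 had a higher and 2 a lower fitted level in Foxa1/2cKO. *Ptcra*, which encodes the pre-TCR alpha chain of earlier thymocytes, had the smallest p, with FPKM of 11.2 and 11.9 in the controls and of 7.44 and 3.23 in Foxa1/2cKO (log2 fold change -1.08, unadjusted p = 0.0273 and adjusted p = 0.863 from limma). For the markers of other cells, the summed levels overlapped between genotypes. The summed FPKM of 5 B cell markers was 75.6 and 50.3 in the controls against 103.5 and 54.0 in Foxa1/2cKO, that of 5 myeloid markers was 19.7 and 12.1 against 19.5 and 9.39, and that of 6 thymic epithelial markers ranged from 6.13 to 6.79. Of 6 erythroid markers, 4 were at 0 everywhere and the sum was 0.608 to 2.67. The 5 markers of mature thymocytes summed to 228 and 255 FPKM in the controls, to 261 in Foxa1/2cKO 1 and to 174 in Foxa1/2cKO 2. Foxa1/2cKO 2, the low sample, is also the one farthest from the controls for *Malat1*, *Neat1*, *Gas5*, *Snhg1*, *Snhg12*, *Dleu2* and *Mir17hg*, and the part of the maturation stage in their values was not tested. Of 8 dissociation stress genes tested, 3 were higher and 5 lower with a median log2 fold change of -0.07, and *Jun* had the smallest p, at 3.29 and 5.52 FPKM in the control samples and 2.91 and 1.75 in those of Foxa1/2cKO.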

How the data were processed

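RNA of 2 control and 2 Foxa1/2cKO samples of CD69+DP thymocytes was sequenced on an Illumina NextSeq 500. Alignment to mm10 used RefSeq gene annotation, and HTSeq in its union mode did the counting. The submitters' processing notes also name TopHat, Picard and DESeq2. The authors deposited FPKM, a value for each gene in each of the samples. The tool that made them, and whether gene counting used strand, are not given in the sources used here.

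The steps between values gave back whole reads for 100% of the 16069 genes above 0, with the total that scales each sample taken from 11 to 16 snoRNA rows of known length. That total was 14968316 and 13576813 for the controls, 10796528 and 11093927 for Foxa1/2cKO, and it differs from the recovered reads on listed genes (14482757, 13071246, 10396878 and 11262410), so a scaling between samples is already part of the FPKM. The reads and the length of a row are the smallest whole numbers that its values allow, and both could be a multiple. Reads and limits of 3 reads cover counting error only. The file had 27 symbols turned into dates, left as listed.

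Since the values are FPKM and not counts, limma 3.58.1 in R 4.3.3 was fitted on log2(FPKM + 1) with a mean-variance trend over the 10776 genes with at least 1 FPKM in at least 2 samples (2 residual and 2.69 prior degrees of freedom), with Benjamini-Hochberg adjustment over all of them at 0.05. On simulated reads the fit called 189 of 200 genes given a change, and also 26 unchanged genes. The simulation used the same spread for every sample, unlike these data. Replicate numbers were not used to pair the samples in this fit. The members and gene lists were chosen with earlier results of these data known, and list counts are descriptions. Named from a list are at most 4 genes with its smallest p, beside the neighbours of the 10 genes and, chosen after its values were seen, *2610035D17Rik*. Coordinates are from GENCODE vM21 on mm10, and sequences from RefSeq on GRCm38.p6. Tables were made in Python 3.11.15 with pandas 2.3.3, numpy 2.4.6 and scipy 1.17.1, and figures with matplotlib 3.10.9. The alternatives were upper-quartile scaling, a pseudocount of 0.1, testing without a filter, requiring 1 FPKM in every sample, a replicate block, a length correction with and without the block, leaving out each sample and, chosen after seeing the data, scaling to all recovered reads and limma-voom on recovered reads. The results of 2 genes are not reported here.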

Additional observations from a re-analysis of the deposited data

How the results depend on the processing

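Of 130 fold changes of the 10 genes over 13 alternatives, 116 kept their direction and their side of the adjusted threshold in limma, 9 turned and 5 newly passed it. Turned values were small: *Snhg3* was 0.031 and *Snhg5* 0.012 with the length correction, with and without the replicate block. Leaving out each sample gave -0.21 to 0.046 for *Snhg8*, -0.063 to 0.016 for *Snhg3*, -0.16 to 0.085 for *Gas5*, -0.14 to 0.023 for *Snhg1* and -0.048 to 0.47 for *Dleu2*, with the turned value without control replicate 2 for *Snhg8*, without Foxa1/2cKO replicate 1 for *Snhg3* and without Foxa1/2cKO replicate 2 for the others. The 5 that newly passed (*Malat1*, *Neat1*, *Snhg12*, *Dleu2* and *Mir17hg*) did so without Foxa1/2cKO replicate 1, where the lone sample is assumed to vary as little as the controls and 2559 of all genes passed. Leaving out each sample in turn, the genes called went from 0 to 2559, those with an unadjusted p under 0.05 from 73 to 4223, and among the 10 genes from 0 to 5 called and 0 to 7 unadjusted. The only gene called overall was lost (0 genes) with a pseudocount of 0.1, without a filter, with 1 FPKM in every sample, with scaling to all recovered reads and with limma-voom. Requiring 1 FPKM in every sample removed that gene before testing, and for the other settings the cause was not tested. Without a filter 802 genes had an unadjusted p under 0.05, against 490. Upper-quartile scaling gave 2 of the 10 genes an unadjusted p under 0.05, *Snhg12* beside *Neat1*. Among all unadjusted calls 258 were higher and 232 lower, against 214 and 317 with upper-quartile scaling and 221 and 318 with scaling to all recovered reads. Samples with the same replicate number did not deviate together (correlation -0.06), so the numbers name samples only, and the replicate block gave 378 unadjusted genes, 1 gene called, and 0 of the 10 genes called with 1 unadjusted (*Neat1*, p = 0.0259 from limma). With 2 samples a genotype, no outlier test was possible.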

Other observations

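Other named long non-coding RNAs were measured beside the 10 genes. Of 23 listed, 3 were at 0 in every sample and 15 were high enough to test, of which 6 had a higher and 9 a lower fitted level in Foxa1/2cKO, with a median log2 fold change of -0.07 and 0 genes with an unadjusted p under 0.05 from limma. *Tug1* had the smallest p of the list. It was 26.05 and 26.0035 FPKM in the controls, compared with 30.7 and 29.3 in Foxa1/2cKO (log2 fold change 0.20, standard error 0.08, adjusted p = 0.863 from limma), so both Foxa1/2cKO values were above both controls, and the samples of each genotype were close together. *1700020I14Rik* was 16.8 and 16.98 FPKM in the controls against 18.1 and 20.02 in Foxa1/2cKO, also without overlap. Both Foxa1/2cKO values lay above both controls for 2 of the 15 and below for 1, and 12 overlapped. Over all genes tested, 18.9% lay above and 17.8% below. The imprinted antisense RNA *Airn* was 4.49 and 4.11 FPKM in the control samples and 3.98 and 3.75 in those of Foxa1/2cKO.

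Among other microRNA hosts, *Mir155hg*, which carries miR-155, and *Mir22hg* were the only ones high enough to test. *Mir155hg* was 1.22 and 1.57 FPKM in the controls, compared with 1.69 and 1.21 in Foxa1/2cKO, and *Mir22hg* was 3.33 and 2.04 against 2.36 and 3.67, so both overlapped.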
